A study of Mus musculus with 4 samples.

Results

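Ddx4, Dazl, Dnd1, Elavl2, Tex14, Rnf17 and Tex19.1 encode proteins that germ cells use to bind RNA, to stay joined to each other or to hold their identity, outside the core of the piRNA pathway. They were followed in mouse gonocytes, the immature germ cells of the newborn testis. All probe sets that the array annotation assigns to 1 of these 7 genes alone were taken, which gave 15 of the 45037 probe sets that are not controls. Elavl2 had 5 of them, Rnf17 had 4, Dazl had 2, and Ddx4, Dnd1, Tex14 and Tex19.1 had 1 each.

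The cells came from testes of mice at 2 days post partum, were sorted with magnetic beads on THY1, a cell surface protein, and were kept in culture for 8 h with neither serum, growth factors nor feeder cells. The treated group received retinoic acid (RA) at 100 nM, a signal made from vitamin A under which male germ cells start to differentiate, and the control group received ethanol, the vehicle. Each group had 2 samples, numbered 1 and 2 in the sample titles, and each sample was read on 1 Affymetrix Mouse Genome 430 2.0 array. The sources used here name no strain or genotype. They do not say what the number marks, nor whether each sample was a culture or litter of its own, so the p-values here rest on a spread that may be technical. The questions put to the 7 genes were these: how strong their signal was at baseline, whether arrays numbered 2 differed from arrays numbered 1, and whether RA differed from vehicle.

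Germ cells keep their messenger RNAs under tight control after transcription, because many of their genes are made ready long before the protein is needed. DDX4 is an RNA helicase, and DAZL binds the 3' untranslated regions of messenger RNAs and promotes their translation. DND1 also binds 3' untranslated regions and is needed for the survival of early germ cells in mice, and ELAVL2 is a Hu-family protein that binds AU-rich RNA and is used by neurons as well. TEX14 keeps the bridges open that join sister germ cells, RNF17 carries a RING finger and Tudor domains and sits in cytoplasmic granules of male germ cells, and TEX19.1 limits retrotransposons and is needed for male meiosis.

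The 4 arrays had the same trimmed mean signal of 125, and their medians lay between 26.6 and 29.5. Their upper signals differed by number. The 75th percentile was 143.0 on RA array 1 and 142.5 on vehicle array 1, against 131.4 on RA array 2 and 133.7 on vehicle array 2. The 99th percentile was 1630 and 1644 on those numbered 1, against 2240 and 1946 on those numbered 2. Differences by number after quantile normalization are therefore given below as well. The THY1-sorted cells carried strong germ cell signals, and 11 of 13 fixed male germ cell markers were measured, all above the signal filter. Markers of other testis cells were present too. The 3'/5' signal ratio, which reads RNA and amplification quality, was 2.08 and 2.32 for Actb on the RA arrays, against 1.72 and 1.73 on the vehicle arrays. For Gapdh it was 1.85 and 2.00 on the RA arrays, against 1.56 and 1.47 on the vehicle arrays. The ratio was thus higher on the RA arrays, and its part in the RA values given here was not tested.

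At baseline 6 of the 7 genes gave signals at a mean percentile of 75.4 or above, and Dnd1 lay nearer the middle at 60.9. The place of a gene is given as a percentile, the percent of all non-control probe sets on the same array with a lower signal, each gene being read from its brightest probe set. A signal also depends on how well its probes bind, so percentiles order signals and not numbers of transcripts. The order from high to low on the vehicle arrays was Dazl, Ddx4, Elavl2, Tex19.1, Tex14, Rnf17 and Dnd1.

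The helicase gene Ddx4 had signals of 1305 and 1289 on vehicle arrays 1 and 2, at percentiles 98.2 and 97.7. Dazl had 1606 and 1603, at percentiles 98.9 and 98.5, and its dimmer probe set had 519 and 413. These 2 genes had nearly the same value on both vehicle arrays and lay above the other 5. Elavl2 had 800.4 and 616 (percentiles 95.2 and 93.1), and Tex19.1 had 791 and 550.4 (percentiles 95.2 and 92.1). Those ranges overlapped, so their order is not settled, whereas no other neighbours in the order overlapped on the vehicle arrays. Tex14 followed with 385 and 247 (percentiles 88.0 and 83.4). Rnf17 had 159 and 126 (percentiles 76.6 and 74.1) and Dnd1 had 71.8 and 43.1 (percentiles 64.9 and 56.8). The median percentile of the 7 genes was 93.6, and it was 89.7 when genes were ranked among genes by their brightest probe sets. In that ranking the dimmer genes fell furthest, Tex14 to 76.7, Rnf17 to 62.3 and Dnd1 to 45.9. Dazl, Ddx4 and Elavl2 stood at 98.4, 97.2 and 90.6.

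Probe sets of the same gene differed widely in signal. Those of Elavl2 averaged 708, 205, 168, 122 and 0.932 on the vehicle arrays, and the dimmest, with 0.152 to 1.39 on the 4 arrays, was the only 1 of the 15 below the signal filter. That probe set and the third brightest are annotated with the same source sequence. For Rnf17 the averages on the vehicle arrays were 143, 122, 39.0 and 18.7. The 14 probe sets above the filter could be tested.

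**Figure D1:**
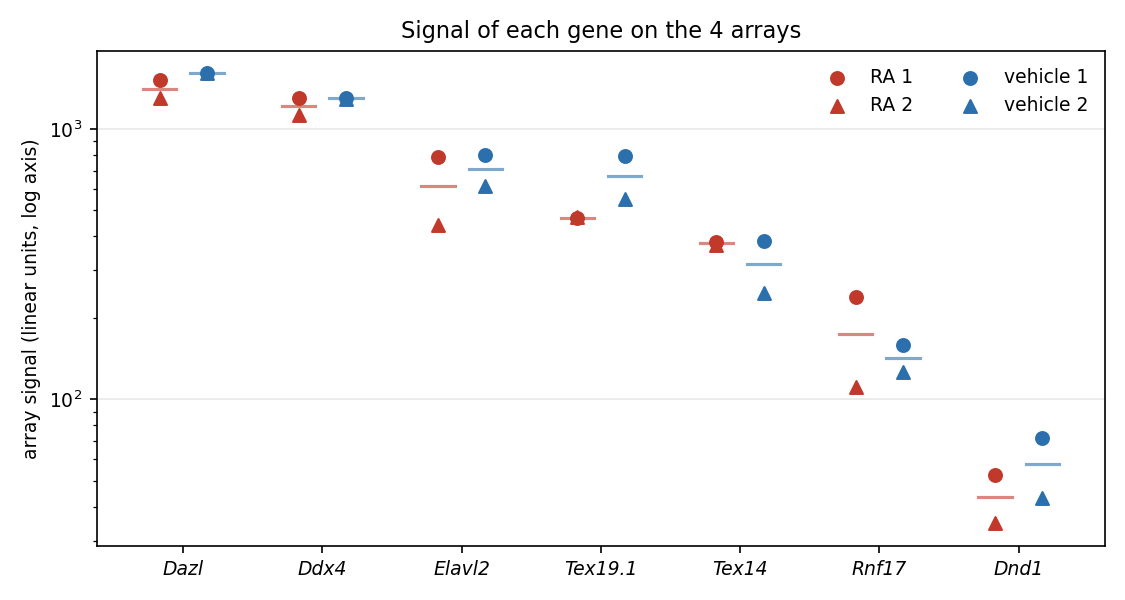
Signal of the brightest probe set of each gene on the 4 arrays (log axis, linear units), with RA at the left and vehicle at the right of each gene, circles for samples numbered 1, triangles for samples numbered 2 and a bar at each group mean. The triangles lie below the circles in most pairs, with Dazl and Ddx4 on vehicle nearly level, while RA and vehicle means lie close together for most genes.

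Promoter sequence was looked up for the genes, because known germ line promoters are rich in CpG and often carry an E2F-type element, GCGGGA, and because RA receptors bind the half-site AGGTCA. The windows run from upstream of the transcription start to just inside the gene and come from RefSeq, build GRCm38.p6. They matched 5 genes with 10 windows, 6 of them for Elavl2. No window was read for Dnd1 or Rnf17. The search for the genes did not cover every chromosome, so a gene with no window here may have one in RefSeq. The 4 genes with a single window are shown, 5′ to 3′ on the gene's strand, with each GCGGGA or its reverse complement TCCCGC in capitals.
Ddx4, chr13:112652261-112652560, minus strand: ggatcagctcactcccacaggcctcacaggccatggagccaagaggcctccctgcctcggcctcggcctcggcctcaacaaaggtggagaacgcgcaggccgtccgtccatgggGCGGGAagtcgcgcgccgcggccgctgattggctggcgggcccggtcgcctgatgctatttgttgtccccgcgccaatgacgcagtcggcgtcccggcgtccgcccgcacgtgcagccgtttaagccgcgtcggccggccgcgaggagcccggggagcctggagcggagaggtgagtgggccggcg
Dazl, chr17:50293571-50293870, minus strand: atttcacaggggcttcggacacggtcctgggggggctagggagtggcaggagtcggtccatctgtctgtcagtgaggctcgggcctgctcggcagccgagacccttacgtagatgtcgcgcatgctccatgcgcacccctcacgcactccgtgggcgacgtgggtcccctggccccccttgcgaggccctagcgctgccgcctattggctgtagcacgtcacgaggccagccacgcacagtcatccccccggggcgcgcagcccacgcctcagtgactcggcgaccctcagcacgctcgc
Tex14, chr11:87404815-87405114, plus strand: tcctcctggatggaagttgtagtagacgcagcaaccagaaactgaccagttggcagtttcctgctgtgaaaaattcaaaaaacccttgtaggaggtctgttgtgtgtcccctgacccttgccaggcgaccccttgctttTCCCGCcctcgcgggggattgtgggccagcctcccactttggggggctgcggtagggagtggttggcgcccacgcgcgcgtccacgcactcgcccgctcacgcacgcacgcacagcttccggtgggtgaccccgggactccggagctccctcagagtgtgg
Tex19.1, chr11:121145893-121146192, plus strand: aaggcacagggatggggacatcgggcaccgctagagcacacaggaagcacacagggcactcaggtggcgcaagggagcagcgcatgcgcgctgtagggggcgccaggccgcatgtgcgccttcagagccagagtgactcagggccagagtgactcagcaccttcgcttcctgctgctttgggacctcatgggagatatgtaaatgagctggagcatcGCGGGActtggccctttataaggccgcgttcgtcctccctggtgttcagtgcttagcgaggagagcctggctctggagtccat
The shown windows of Ddx4, Dazl, Tex14 and Tex19.1 held 38, 28, 20 and 16 CpG sites, against a median of 7 over all 32851 windows. GCGGGA, on either strand, was found in the windows of Ddx4, Tex14 and Tex19.1 and in 3 of the 6 windows of Elavl2, which cover nearly the same bases, while 19.98% of all windows hold it. AGGTCA, on either strand, was in none of the 10 windows, and 16.3% of all windows hold it. The E-box CACGTG was in the Ddx4 window alone of the 10 and is held by 7.15% of all windows. In the Ddx4 window the GCGGGA and the E-box do not overlap. These are matches of letters and were not tested for binding.

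RA was set against vehicle to find transcripts that differ after 8 h of exposure. None of the 7 genes was called in the fit with no term for the number. Between RA and vehicle the probe sets of the 7 genes had log2 differences from −0.84 to 0.28, with 10 of 14 below 0, as were 52.6% of all probe sets tested, and 4 above. In limma, 0 of the 14 had an adjusted p under 0.05, where the share called over all 27022 probe sets tested was 0.0%, and 0 had an unadjusted p under 0.05, which 743 probe sets had (2.75%; 1.1% higher and 1.65% lower). The median over the 7 genes was −0.20, against −0.02 over all probe sets tested. An exact permutation test of a single gene, 2 arrays against 2, cannot give a two-sided p below 0.33.

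Among the RNA-binding proteins, Ddx4 had signals of 1299.8 and 1121 on RA arrays 1 and 2, against 1305 and 1289 on vehicle arrays 1 and 2. RA array 1 lay between the vehicle arrays, so the groups overlapped, and the log2 change was −0.10 ± 0.21 (SE, n = 2 per group) with a 95% interval from −0.59 to 0.38. Dazl had 1514 and 1296 with RA, against 1606 and 1603 with vehicle. Both RA arrays were below both vehicle arrays on this probe set, a log2 change of −0.20 ± 0.22, while the groups overlapped on the dimmer probe set, at −0.24 ± 0.22. Dnd1 had 52.5 and 34.8 with RA, against 71.8 and 43.1 with vehicle. RA array 1 lay above vehicle array 2, and the log2 change was −0.35 ± 0.35.

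Elavl2 had 784 and 442 with RA, against 800.4 and 616 with vehicle, so that RA array 2 was the lowest and RA array 1 stood close to the higher vehicle array. The log2 change was −0.25 ± 0.29 on this probe set and −0.45 ± 0.42, −0.54 ± 0.37 and −0.84 ± 0.42 on the next 3 in order of signal. The groups overlapped on all 4. The widest shift belonged to the dimmest of them, which had signals of 84.0 and 44.9 with RA, against 167 and 77.1 with vehicle (95% interval −1.81 to 0.14).

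Tex19.1, the gene that limits retrotransposons, had 467 and 472 with RA, against 791 and 550.4 with vehicle. The RA arrays were close to each other and both below the vehicle arrays, which were far apart. The level was 1.40-fold lower with RA (log2 change −0.49 ± 0.23, 95% interval −1.01 to 0.04, limma adjusted p = 1.0). Tex19.1 and the brighter Dazl probe set were the 2 of 14 whose RA arrays both lay below the vehicle arrays, and 15.2% of all probe sets tested did so. For none of the 14 did both RA arrays lie above both vehicle arrays, as 12.7% of all probe sets tested did.

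Tex14, the bridge protein gene, had 383 and 372 with RA, against 385 and 247 with vehicle. Vehicle array 2 was low and the other 3 arrays agreed closely, and the log2 change was 0.28 ± 0.24. Rnf17 had 239 and 111 with RA, against 159 and 126 with vehicle, the RA arrays enclosing the vehicle arrays. Its log2 changes were 0.19 ± 0.35, 0.13 ± 0.36, 0.17 ± 0.39 and −0.24 ± 0.38 from the brightest to the dimmest probe set.

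Read within each number, 9 of the 14 probe sets were lower with RA in both pairs, 2 were higher in both and 3 differed in sign. The share over all probe sets is not given here. All those of Elavl2 and Dazl among the 14 were among the 9, and probe sets of the same gene are not independent. Tex19.1 stood at −0.76 between the samples numbered 1 and at −0.22 between those numbered 2. The brightest probe set of Rnf17 stood at 0.57 and −0.18, and Tex14 at −0.01 and 0.58. A single array set the sign for 4 genes: without RA replicate 2 Ddx4 stood at 0.0028 and Elavl2 at 0.16, without RA replicate 1 Rnf17 stood at −0.34, and without vehicle replicate 2 Tex14 stood at −0.03. None of the 7 genes was called under any of these.

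Summed over the brightest probe sets, the signal of the 7 genes with RA was 0.925 times that with vehicle between the samples numbered 1 and 0.860 times between those numbered 2. Marker sums differed between the treatments as well. The RA over vehicle ratios at numbers 1 and 2 were 0.648 and 0.921 for mast cell markers, 0.763 and 0.848 for macrophage markers, and 0.670 and 0.741 for neuronal markers. Those for endothelial markers were 1.15 and 1.43, and those for peritubular and stromal markers 1.15 and 1.19. Sertoli markers gave 1.06 and 1.07, Leydig markers 1.10 and 0.785 in opposite directions, and male germ cell markers 0.918 and 0.971. Their part in the RA values was not tested.

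Samples numbered 2 were then set against those numbered 1. All 14 probe sets of the 7 genes were below 0 in this contrast, with log2 differences from −0.96 to −0.11, and 53.1% of all probe sets tested were below 0. Both arrays numbered 2 lay below both arrays numbered 1 in 12 of the 14, where 26.9% of all probe sets tested did so and 23.5% lay above. The median over the 7 genes by brightest probe set was −0.33, against −0.03 over all probe sets tested. In limma, 0 of the 14 had an adjusted p under 0.05 (0.581% of all probe sets tested did, 0.403% higher and 0.178% lower), while 8 had an unadjusted p under 0.05 and were lower, as 8.92% of all probe sets tested were (18.3% in either direction, 9.42% higher). Probe sets of the same gene are not independent, and most of the 14 belong to Elavl2 and Rnf17. By brightest probe set, 7 of the 7 genes were below 0. Both arrays numbered 2 lay below both arrays numbered 1 in 5 of the 7, and 3 had an unadjusted limma p under 0.05. In bulk samples, fewer germ cells and less of an RNA per germ cell cannot be told apart.

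By brightest probe set the differences were widest in Rnf17, Dnd1 and Elavl2, and the dimmer probe sets of Elavl2 reached further. On its brightest probe set Elavl2 had 442 and 616 on RA array 2 and vehicle array 2, against 784 and 800.4 on RA array 1 and vehicle array 1. The arrays numbered 2 were both lower, by 1.51-fold (log2 difference −0.60 ± 0.19, limma adjusted p = 0.140). The next 3 probe sets gave −0.96 ± 0.25, −0.83 ± 0.26 and −0.95 ± 0.34. Rnf17 had 111 and 126 on the arrays numbered 2, against 239 and 159 on those numbered 1. This was a 1.62-fold lower level (log2 difference −0.70 ± 0.23, limma adjusted p = 0.154), and its other 3 probe sets gave −0.80 ± 0.20, −0.74 ± 0.25 and −0.63 ± 0.28, so that the 4 probe sets of this gene gave like values.

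Dnd1 was lower by 1.52-fold on the arrays numbered 2 (log2 difference −0.60 ± 0.26), with 34.8 and 43.1 on RA array 2 and vehicle array 2, against 52.5 and 71.8 on RA array 1 and vehicle array 1. With the values as deposited, the brightest genes had the smallest differences, Ddx4 at −0.12 ± 0.15 and Dazl at −0.11 ± 0.16. The dimmer Dazl probe set gave −0.34 ± 0.18. Tex14 stood at −0.33 ± 0.21 and Tex19.1 at −0.25 ± 0.24. Quantile normalization, which gives all arrays the same signal distribution, changed this order. Ddx4 then stood at −0.31 and Dazl at −0.37, wider than Tex14 at −0.25 and Tex19.1 at −0.23.

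**Figure D2:**
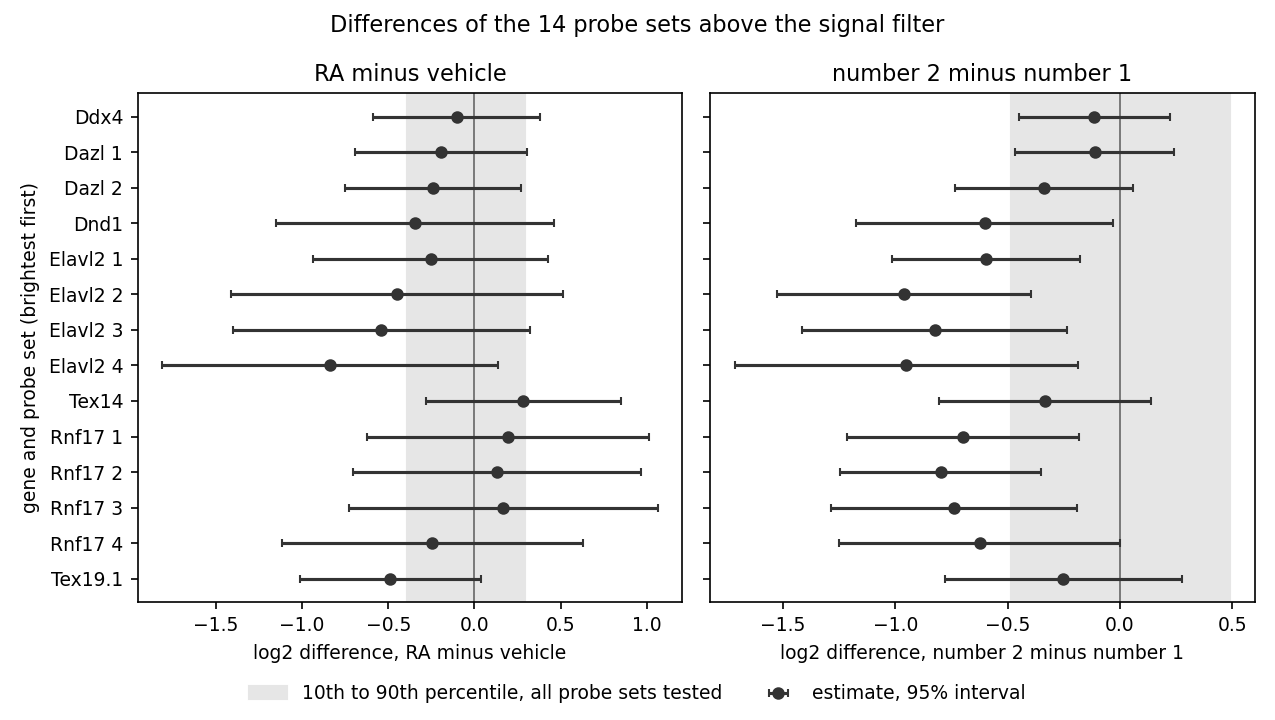
Log2 differences with 95% intervals from limma for the 14 probe sets above the filter, RA minus vehicle at the left and number 2 minus number 1 at the right; the grey band holds the 10th to 90th percentile of all probe sets tested. The RA estimates lie on both sides of 0 and their intervals all include 0, whereas all 14 number estimates lie below 0, those of Elavl2 and Rnf17 at −0.60 or lower.

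Treatment was then added as a term in the fit, which takes the RA difference out of the residual spread. With it, 7 of the 14 probe sets were called lower at an adjusted p under 0.05. These were the 4 of Elavl2 above the filter and 3 of the 4 of Rnf17. The fit leaves 1 residual degree of freedom for each probe set, so its SEs rest mainly on the spread pooled over all probe sets. The brightest probe set of Elavl2 had an SE of 0.19 with and without the term. The SE of Ddx4 rose from 0.15 to 0.20. In that fit 5.53% of all probe sets tested were called lower. It is the same model as RA against vehicle with the number as a block. There are only 2 pairs, so its calls are given as a description. The brightest probe set of Elavl2 then had an adjusted p of 0.0180 and that of Rnf17 of 0.00988 in limma. Calls among the 14 also appeared when an array was left out of the fit with no treatment term: 1 probe set of Rnf17 without vehicle replicate 1, 3 of Elavl2 without vehicle replicate 2 and 1 of Elavl2 without RA replicate 1. In those fits 1.42%, 2.03% and 0.148% of all probe sets tested were called lower. Each such fit has a lone array at 1 number, which is assumed to vary like the pair at the other. Without vehicle replicate 1 Tex19.1 stood at 0.13, and without RA replicate 2 Dazl stood at 0.04.

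The sign was negative within both treatments for 13 of the 14 probe sets, and the share over all probe sets is not given here. Some of these values were close to 0. Between the vehicle samples the brighter Dazl probe set stood at −0.003 and Ddx4 at −0.018. Between the RA samples the brightest probe sets of Rnf17 and Elavl2 stood at −1.07 and −0.82, and between the vehicle samples at −0.33 and −0.37. Tex14 and Tex19.1 showed the reverse, with −0.04 and 0.01 between the RA samples and −0.63 and −0.52 between the vehicle samples. With 1 array in each cell of this layout, the difference between the treatments could not be tested.

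**Figure D3:**
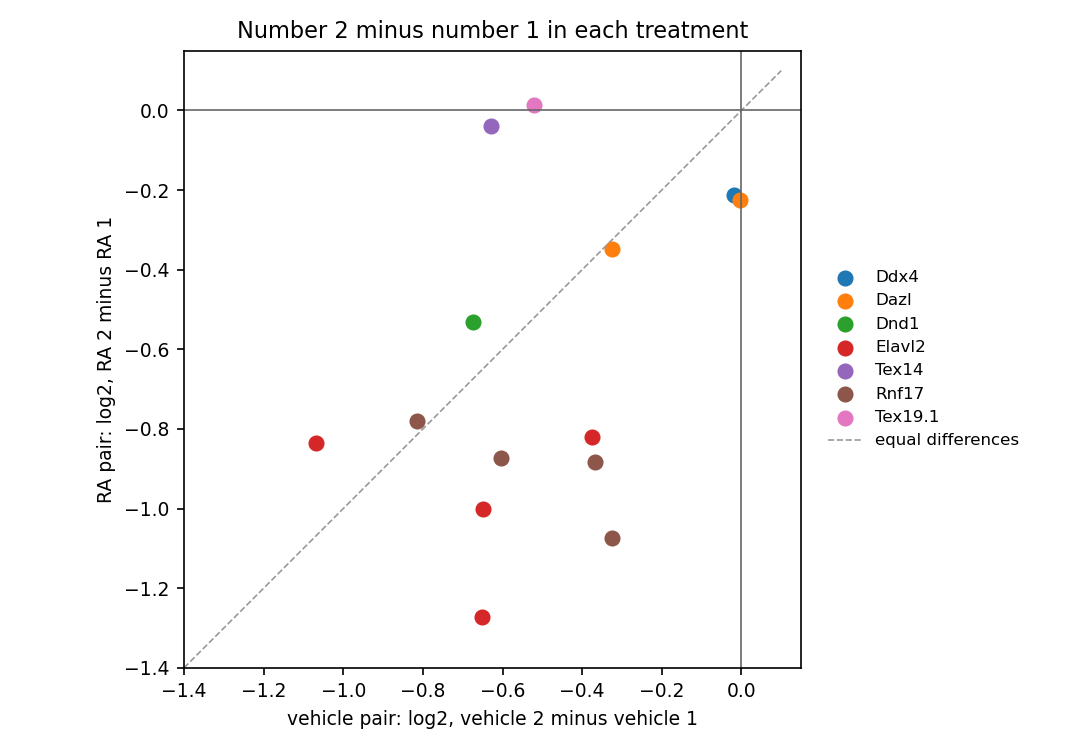
Log2 difference between number 2 and number 1 for the 14 probe sets above the filter, in the RA pair (vertical) against the vehicle pair (horizontal), with 1 point per probe set coloured by gene. All but the Tex19.1 point lie below 0 in both pairs, Tex14 and Tex19.1 stand near 0 in the RA pair alone, and Ddx4 and the brighter Dazl probe set stand near 0 in the vehicle pair.

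Markers of other cells moved with the number. Summed over all 6 fixed mast cell markers, the signal of RA sample 2 was 3.06 times that of RA sample 1, and that of vehicle sample 2 was 2.15 times that of vehicle sample 1. Of the 5 mast cell markers above the filter, Cpa3, Tpsb2 and Cma1 were called higher in number 2 (log2 differences 1.62, 1.62 and 1.29), names given after their values were seen. All 7 macrophage markers summed to ratios of 2.23 in the RA pair and 2.01 in the vehicle pair, and in limma 6 of the 6 above the filter had an unadjusted p under 0.05 and were higher in number 2. Sertoli cell markers, all 10 measured, gave 1.30 and 1.28, a sum led by Clu, with Amh and Fshr below the filter. Of the 8 above it, 6 stood above 0 in number 2 and 2 below, Sox9 at −0.14 and Wt1 at −0.19. Leydig cell markers (5 of 7 measured) gave 1.31 and 1.82, peritubular and stromal markers (7 of 7) 1.29 and 1.24, and endothelial markers (8 of 8) 1.17 and 0.942. The stromal sum is carried by Acta2 and Col1a1, and its members were mixed: 4 stood above 0, while Des, Cnn1 and Myh11 lay lower on both arrays numbered 2 (log2 differences −1.04, −1.34 and −0.36).

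Over the same pairs the 7 germ cell genes summed to ratios of 0.812 with RA and 0.874 with vehicle. The 11 measured male germ cell markers, which include Ddx4 and Dazl and whose sum is led by Sall4, gave 1.01 and 0.957. Of these 11, 8 were below 0 in number 2, with a median of −0.12, and without Sall4, left out after its values were seen, the sums gave 0.805 and 0.911. Thy1, the protein used for the sort, had signals of 141 and 168 on RA array 2 and vehicle array 2, against 265 and 329 on RA array 1 and vehicle array 1. No marker was listed at 0, and the lowest signals included Fshr and Amh of Sertoli cells, Fcer1a of mast cells and C1qa of macrophages, all below the filter. The part of these cells in the germ cell gene differences was not tested.

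**Figure D4:**
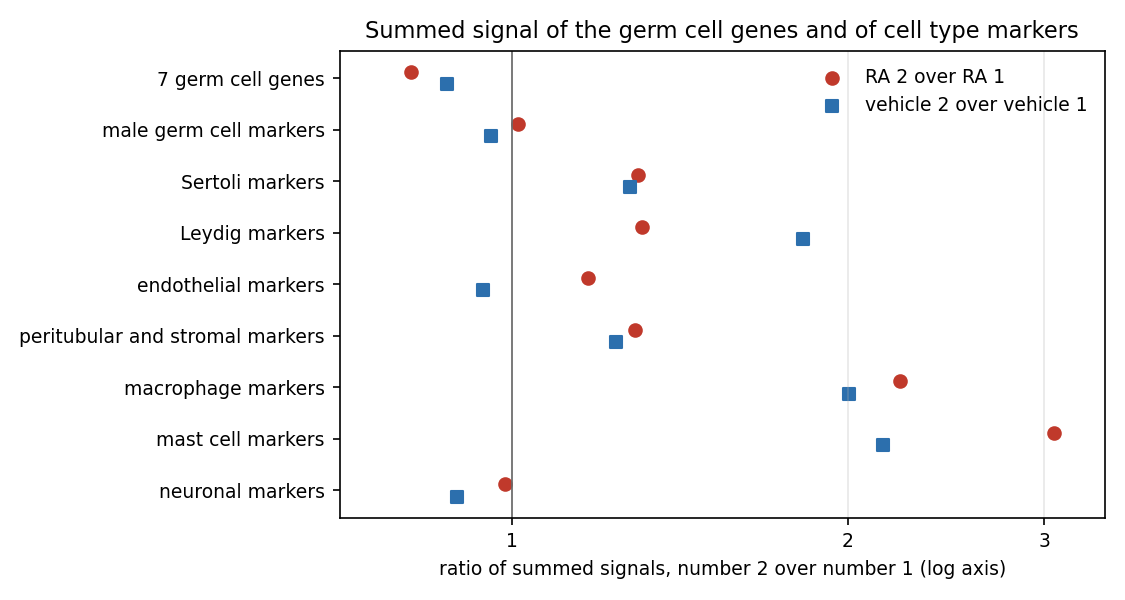
Ratio of summed signals, number 2 over number 1 (log axis), for the 7 germ cell genes and for 8 fixed lists of cell type markers, with circles for the RA pair and squares for the vehicle pair. Mast cell and macrophage markers lie at 2.01 or above in both pairs, Sertoli and stromal sums between 1.24 and 1.30 although 2 Sertoli and 3 stromal markers were lower in number 2, and the 7 germ cell genes at 0.812 and 0.874.

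Elavl2 is shared with neurons, so neuronal markers were read beside it. The sums over 8 neuronal markers were 303 and 299 on the RA arrays, against 452 and 403 on the vehicle arrays, so both RA arrays were lower. That sum rests on Snap25, Nefm and Nefl, and 3 of the 8 markers were above 0 with RA, Stmn2 (1.24) and Tubb3 (0.26) lying higher on both RA arrays. Between numbers these sums differed little, with ratios of 0.986 in the RA pair and 0.892 in the vehicle pair. Elavl3 and Elavl4, the relatives used mainly by neurons, had signals of 14.7 to 29.4 on all 4 arrays, while the widely used Elavl1 had 1030.1 and 1318 with RA, against 1127 and 1192 with vehicle. The RA changes of Elavl1, Elavl3 and Elavl4 were 0.01 ± 0.22, 0.31 ± 0.34 and −0.21 ± 0.31.

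Of 25 other germ cell RNA regulators outside the piRNA core, 21 were measured and 20 were above the filter. None passed in either direction with RA, 11 were above 0 and 9 below, and their median was 0.04. Lin28a, which blocks the maturation of let-7 microRNAs, had the smallest p, with 262 and 254 on the RA arrays, against 385 and 335 on the vehicle arrays (log2 change −0.47 ± 0.19). Igf2bp1, an RNA-binding protein that protects messenger RNAs, stood at −0.40 ± 0.21. Between numbers, 15 of the 20 were below 0 and 0 were called, with a median of −0.21.

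Partners of the proteins did not pass in either comparison. For TEX14, all 7 bridge and midbody genes were measured and 0 were called with RA (median 0.04), with Rbm44, a bridge component, at 0.33 ± 0.28 and Cep55, the midbody protein that TEX14 binds, at 0.12 ± 0.19. For RNF17, 5 genes were listed, Mxd1, Mxi1, Mxd3 and Mxd4 of the Mad family and Max. None of the 5 was called (median −0.14), Mxd4 standing at −0.22 ± 0.27 and Mxd3 at −0.17 ± 0.22. For TEX19.1, its paralog Tex19.2 had 184 and 198 on the RA arrays, against 251 and 203 on the vehicle arrays (log2 change −0.23 ± 0.21), and Ubr2, the ubiquitin ligase that TEX19.1 binds, stood at 0.05 ± 0.20. The RA arrays of Tex19.2 both lay below the vehicle arrays, narrowly so at 198 against 203. Those of Tex19.1 did so too, as did 15.2% of all probe sets tested. Between numbers, all 7 bridge and midbody genes stood below 0 (median −0.11), as did 53.1% of all probe sets tested. Of these 7, 4 were lower on both arrays numbered 2, as were 26.9% of all probe sets tested. On the RNF17 list 3 genes stood below 0 and 2 above (median −0.08), and Tex19.2 and Ubr2 both stood below 0 (median −0.07).

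Sycp3, a synaptonemal complex gene whose messenger RNA DAZL binds in mice, had 436 and 533 on RA array 2 and vehicle array 2, against 999 and 794 on RA array 1 and vehicle array 1 (log2 difference −0.88 ± 0.18, limma adjusted p = 0.0674), and stood at 0.02 ± 0.38 with RA. The other DAZL-bound messengers on that list were Ddx4 and Tex19.1. Of 6 other germ cell TEX genes 5 were above the filter, and all 5 were lower on both arrays numbered 2, as 26.9% of all probe sets tested were, with 0 called. With RA their median was −0.12, Tex11 standing at −0.26 ± 0.31 and Tex15 at 0.13 ± 0.23.

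The genes whose profile over the 4 arrays lay closest to the median centred profile of the 7 were Rassf8, Itpr2 and Tubg2. Their root mean square distances to it were 0.015, 0.016 and 0.017 on the log2 scale, out of 13004 genes compared. The 7 genes themselves stood at distances of 0.088 (Ddx4) to 0.31 (Rnf17). Rassf8, Itpr2 and Tubg2 were picked as the closest of all genes compared. Their smaller distances therefore do not show how alike the 7 genes were.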

How the data were processed

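RNA from 2 RA and 2 vehicle samples was read on 1 array each. Per the labels' protocols, amplification (NuGEN Ovation, version 2) started from 75 ng of total RNA and GCOS 1.2 read the images. The values the authors deposited are linear intensities for each probe set, and the sources used here do not give the probe summary or the scaling. Trimming 2% at either end left a mean of 125 on every array, so no normalization was added in the main fits, although the upper signals differed by number. No detection calls were used, so a signal near the background carries little information.

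Gene symbols came from the platform annotation and were brought up to RefSeq names of GRCm38.p6 by Entrez ID. In all 34945 probe sets named 1 gene. A gene was read from its brightest probe set. Values were taken as log2(intensity + 5), where 5 is the rounded 20th percentile, so fold changes of dim genes are understated. Probe sets at or above the 40th percentile of mean log2 value (27022) were fitted with limma 3.58.1 in R 4.3.3 (lmFit, eBayes with an intensity trend, two-sided, Benjamini-Hochberg over all of them), with no term for the other factor. The fit was tested on simulated arrays with known changes. Figures were drawn with matplotlib 3.10.9.

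All 7 genes were named whatever their test. Of the lists of related genes, the 2 with the smallest unadjusted p for RA were named (all in lists of 3 or fewer), and markers were named after seeing their values. The 3 genes nearest to the median centred profile of the 7 genes were named. The genes and lists were chosen with earlier results of these data known. Genes of a list with no probe set of their own were not analysed here. Alternatives were 2 other normalizations, pseudocounts of 1 and 20, no filter and the 60th percentile, no intensity trend, each array left out, the other factor as a term, and the mean of all probe sets.

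The deviations of same-numbered RA and vehicle samples from their group means correlated at r = 0.53 over the 27022 probe sets. The labels do not say what the number marks and there are only 2 pairs, so the numbers were not taken to pair the samples in the main fits. The fits with the other factor as a term do pair them and are given as a description.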

Additional observations from a re-analysis of the deposited data

How the results depend on the processing

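The number of probe sets called at an adjusted p under 0.05 depended on the fit. For RA against vehicle it was 0, and 0 to 173 with 1 array left out. With the replicate number as a block it was 543, among them 1 of the 14 probe sets of the 7 genes, the fourth brightest of Elavl2 (log2 change −0.84, adjusted p = 0.0187). The block changed no other call among them, and since there are only 2 pairs it is given as a description. The fit of the number with treatment as a term is the same model and has the same limit. For number 2 against number 1 the count was 157, and it was 431 with equal array medians, 0 with no filter (7116 at an unadjusted p under 0.05), 91 with the filter at the 60th percentile, 40 with no intensity trend, 3007 with treatment as a term and 117 to 1487 with 1 array left out. The other alternatives kept both counts within 1.5 times.

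The median RA change of the 7 genes was −0.20 and lay between −0.34 and 0.0028 with 1 array left out. Of single genes, the RA values that changed sign with an array left out ran from −0.21 to 0.0028 for Ddx4, −0.66 to 0.16 for Elavl2, −0.34 to 0.73 for Rnf17 and −0.030 to 0.60 for Tex14, and the number differences from −0.27 to 0.040 for Dazl and −0.63 to 0.13 for Tex19.1. Values that kept their sign also spread widely: the RA change of Dnd1 ran from −0.68 to −0.0079 and that of Tex19.1 from −0.75 to −0.23, and the number difference of Tex14 from −0.62 to −0.045, of Elavl2 from −0.83 to −0.36, of Rnf17 from −0.98 to −0.42 and of Dnd1 from −0.81 to −0.39. No sign changed under the other normalizations, pseudocounts, filters or fits. The median baseline percentile of 93.6 was 90.4 on the RA arrays, 89.7 among genes by brightest probe set, 85.7 as the median over all probe sets of a gene, and 92.1 to 95.2 with a vehicle array left out. The causes were not tested. Having 2 arrays per group limits the precision of every value.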
